A study of Homo sapiens with 6 samples.

Results

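Chemokines and cytokines of the IL-6 family were followed in U251, a human glioma cell line with astrocytic features, after 24 h with 6-shogaol. The 10 genes CXCL8, CXCL1, CXCL2, CXCL3, CCL2, CCL20, IL6, LIF, IL11 and CSF1 were taken by gene name from the table of FPKM values. FPKM are fragments scaled by a length given to each gene and by library depth. Each name matched 1 of the 60612 genes in that table. The study compared 3 libraries of cells treated with 6-shogaol, a pungent, thiol-reactive ketone of dried ginger, with 3 libraries of cells left without it, for which the labels name no vehicle. All 6 libraries came from wild type U251 cells in DMEM with 10% fetal bovine serum, and the labels give the dose as 60 with the unit "μm", read here as micromolar. Whether the replicates were separate cultures is not stated in the labels. Each p-value therefore sets the group difference only against the spread between libraries, which may be technical, and may not carry over to other cultures.

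Chemokines are small secreted proteins that draw leukocytes along a gradient through G protein-coupled receptors. CXCL8, CXCL1, CXCL2 and CXCL3 attract neutrophils, CCL2 attracts monocytes, and CCL20 attracts cells that carry CCR6. IL-6, LIF and IL-11 each bind a receptor of their own and then share gp130, encoded by IL6ST, which activates JAK kinases and STAT3. CSF1 keeps macrophages and microglia alive through CSF1R. Glioma cells are known sources of several of these factors, and NF-kB and AP-1 are classical activators of their genes.

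The 6-shogaol libraries held 43516840 to 55225898 counts and the control libraries 52132767 to 60018999 counts. On principal component 1 of log2 CPM (a gene's counts scaled to library size) the groups lay apart, and 6-shogaol replicate 1 stood alone on component 2. The astrocytic and neural stem marker VIM stood at 5598 to 9756 CPM in 6-shogaol libraries and at 6867 to 7015 CPM in controls, and NES at 539 to 650 CPM with 6-shogaol and 767 to 777 CPM in controls. GFAP, the astrocyte filament gene, stood at 9.04, 8.39 and 9.18 CPM in 6-shogaol replicates 1, 2 and 3 and at 33.9, 24.2 and 23.8 CPM in control replicates 1, 2 and 3 (log2 fold change -1.62, edgeR adjusted p = 0.00655). Other markers of these kinds differed in level. SOX2, SOX9 and CD44 stood at 176.6 CPM or more in every library. SLC1A3 stood at 4.32 to 10.35 CPM with 6-shogaol and 5.76 to 10.0 CPM in controls. AQP4 reached at most 0.445 CPM and S100B at most 1.35 CPM in any library.

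With 6-shogaol, transcripts of the neutrophil chemokine CXCL8 and of the gp130 cytokine IL11 rose about as much as those of the monocyte chemokine CCL2 fell. CXCL2 and IL6 did not move beyond their spread, and CXCL1 and CCL20 were close to absent from every library. Of the 10 genes, 8 passed the filter on low counts and were tested, among 19279 genes in all. Of these 8, CXCL8 and IL11 were called higher and CCL2 lower by the quasi-likelihood test of edgeR (p adjusted by Benjamini-Hochberg over all tested genes, under 0.05). Over all tested genes, 1.67% were called higher, 1.71% lower and 3.38% either way. At unadjusted p under 0.05 in edgeR there were 6 of the 8, against 20.4% of all tested genes. The groups did not overlap in 5 of the 8, against 27.9% of all tested genes. Of these, CXCL8, IL11, CXCL3 and LIF lay higher, against 14.0%, and CCL2 lower, against 13.9%. The median log2 fold change was 0.27 over the 8 tested genes, with a range from -1.09 to 1.10, and 0.00 over all tested genes.

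**Figure D1:**
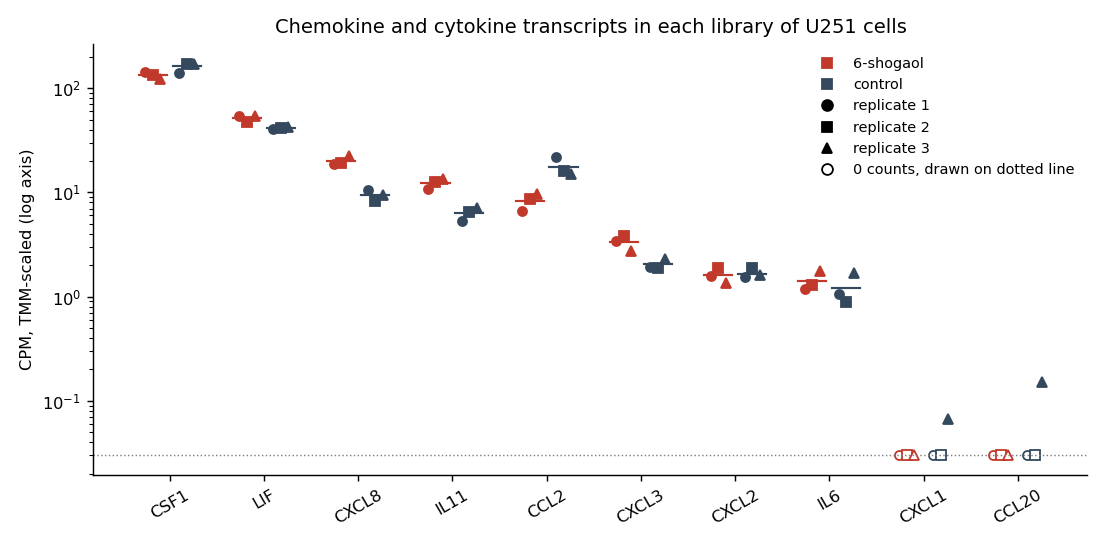
Level of each of the 10 transcripts in each library (CPM with TMM scaling, log axis), with 6-shogaol in red and control in dark blue. Lines are group means where every library had counts, and open symbols on the dotted line had 0 counts. CXCL8 and IL11 lie higher and CCL2 lower in all 3 treated libraries.

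CXCL8, the main human neutrophil chemokine (ENSG00000169429, chromosome 4, 73740541 to 73743716, plus strand), stood at 18.6, 19.3 and 22.3 CPM in 6-shogaol replicates 1, 2 and 3. In control replicates 1, 2 and 3 it stood at 10.5, 8.21 and 9.41 CPM. The lowest treated library lay well above the highest control. The means were 20.1 ± 1.98 CPM with 6-shogaol and 9.36 ± 1.14 CPM in controls (SD, n = 3 each), a log2 fold change of 1.10 (SE 0.13, 95% interval 0.79 to 1.41, edgeR adjusted p = 0.0104). Between 968 and 1052 counts per treated library and 480 and 565 counts per control library lay behind these values. The call was lost without control replicate 2 (edgeR adjusted p = 0.0547) or control replicate 3 (0.0533). In bulk libraries, fewer cells with a transcript and less of it per cell cannot be told apart.

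CXCL1, CXCL2 and CXCL3 lie on the same chromosome as CXCL8 and encode close relatives that signal through the shared receptor CXCR2. CXCL3 (ENSG00000163734, 74036589 to 74038807, minus strand) stood at 3.43, 3.83 and 2.75 CPM in 6-shogaol replicates 1, 2 and 3 and at 1.93, 1.90 and 2.28 CPM in control replicates 1, 2 and 3. The groups did not overlap, yet CXCL3 missed the threshold (log2 fold change 0.71, 95% interval 0.23 to 1.19, edgeR adjusted p = 0.114). CXCL2 (ENSG00000081041, 74097040 to 74099195, minus strand) stood at 1.59, 1.87 and 1.35 CPM with 6-shogaol and at 1.53, 1.86 and 1.60 CPM in controls. The CXCL2 groups lay over each other (log2 fold change -0.05, 95% interval -0.60 to 0.50, edgeR adjusted p = 0.938), and its sign turned without 6-shogaol replicate 3 (0.06) or control replicate 2 (0.04). CXCL1 (ENSG00000163739, 73869393 to 73871308, plus strand) had 0 counts in all 3 treated libraries and 0, 0 and 4 counts in control replicates 1, 2 and 3. A count of 0 allows up to 0.0543, 0.0593 and 0.0689 CPM in 6-shogaol replicates 1, 2 and 3 (3 counts, covering counting error only).

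The coding sequences of CXCL1, CXCL2 and CXCL3 are near copies of each other, so reads of one may have been counted for another. Over 321 aligned bases in GENCODE release 29, CXCL2 and CXCL3 were 94.4% identical, CXCL1 and CXCL2 93.5%, and CXCL1 and CXCL3 90.7%. Of the 50-base windows of the CXCL2 coding sequence, 19.9% also occur in CXCL3, and 5.15% of those of CXCL1 occur in CXCL2. CXCL8 shares no such window with any of them. The counts of CXCL1, CXCL2 and CXCL3 were therefore also summed. The sum came to 5.02, 5.70 and 4.11 CPM in 6-shogaol replicates 1, 2 and 3 and to 3.46, 3.76 and 3.95 CPM in control replicates 1, 2 and 3. The groups lay apart by 0.40 on the log2 scale (two-sided exact permutation test, p = 0.1, the smallest that 3 libraries against 3 can give). The ratio of CXCL3 to CXCL2 counts, chosen after the values were seen and not tested, was 2.16, 2.04 and 2.03 with 6-shogaol and 1.27, 1.02 and 1.43 in controls.

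The promoters of these genes show how alike the silent and the expressed copies are, so the stretch that holds the matches of 2 motifs is printed for each. RefSeq promoters (GRCh38.p14, 250 bases before to 50 after the start) were found for 7 of the 10 genes, and CCL2, LIF and CSF1 were not searched. They were searched on both strands for an NF-kB motif, GGNNTTTCC, and for the AP-1 motif, TGANTCA. Each stretch runs from 10 bases before the first match to 10 after the last on the gene's strand, with the matches in capitals. The first lies at chr4:73740422-73740496 on the plus strand, with AP-1 first and NF-kB second.
CXCL8: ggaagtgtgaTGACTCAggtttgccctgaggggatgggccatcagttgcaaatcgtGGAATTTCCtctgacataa
The next 3 lie at chr4:73869305-73869358 on the plus strand for CXCL1, and on the minus strand at chr4:74099230-74099282 for CXCL2 and chr4:74038724-74038777 for CXCL3.
CXCL1: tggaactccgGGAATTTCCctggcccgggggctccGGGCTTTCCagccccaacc
CXCL2: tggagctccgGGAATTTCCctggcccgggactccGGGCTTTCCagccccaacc
CXCL3: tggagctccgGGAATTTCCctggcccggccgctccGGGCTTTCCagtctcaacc
The same pair of NF-kB matches, letter for letter, stands in CXCL1, which had almost no reads, in CXCL2, which showed no change beyond its spread, and in CXCL3. Over the aligned promoter bases CXCL1 was 87.0% identical to CXCL3 and 80.4% to CXCL2, and CXCL2 was 81.5% identical to CXCL3. An NF-kB match was found in 6 of the 7 promoters, against 6.26% of all 35116 promoters. An AP-1 match was found in 2 of the 7, against 7.71% of all. NF-kB was a known activator of such genes beforehand, and CXCL1, CXCL2 and CXCL3 are near copies, so this is no test of enrichment. For CXCL8, CXCL3, CCL20 and IL6 the RefSeq start lies inside the deposited gene bounds, and for CXCL3, CCL20 and IL6 so does the whole printed stretch. A match describes these letters and does not show that a factor was bound.

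CCL2, the chief monocyte chemokine (ENSG00000108691, chromosome 17, 34255218 to 34257203, plus strand), fell with 6-shogaol. It stood at 6.65, 8.67 and 9.60 CPM in 6-shogaol replicates 1, 2 and 3, against 21.8, 16.2 and 15.1 CPM in control replicates 1, 2 and 3. The highest treated library stayed below the lowest control. The means were 8.30 ± 1.5 CPM with 6-shogaol and 17.7 ± 3.58 CPM in controls (SD, n = 3 each), a log2 fold change of -1.09 (SE 0.19, 95% interval -1.55 to -0.64, edgeR adjusted p = 0.0352). The CCL2 call was lost in each of the 6 fits that left out 1 library, with log2 fold changes from -1.21 to -0.91 and adjusted p from 0.0505 to 0.110. For CCL2 and CXCL3 the annotated exons in GENCODE 29 cover the whole gene, so reads from unspliced RNA can be among their counts.

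**Figure D2:**
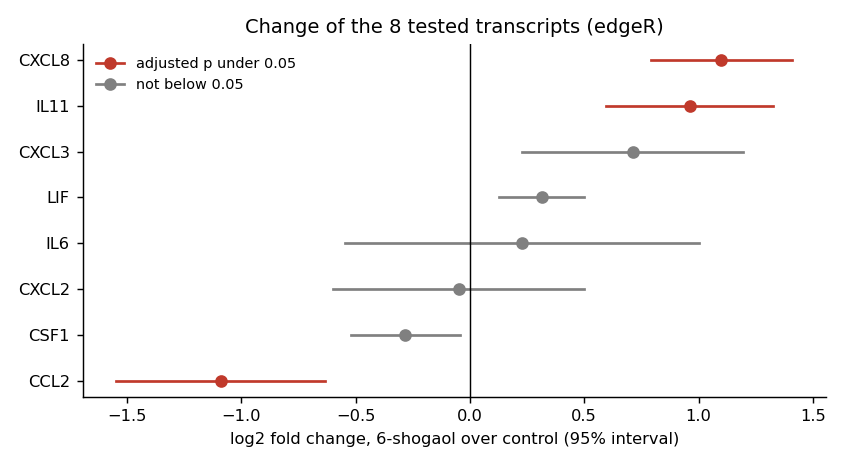
Log2 fold change of the 8 tested transcripts, 6-shogaol over control, with 95% intervals from edgeR; red marks an adjusted p under 0.05. CXCL8 and IL11 lie near 1 and CCL2 near -1, while the intervals of IL6 and CXCL2 span 0.

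In FPKM, CXCL8 and CCL2 changed places in the order of levels. That order depends on the length given to each gene, which was not checked, and the annotated CCL2 exons cover the whole gene. CXCL8 stood at 7.21, 7.22 and 8.47 FPKM in 6-shogaol replicates 1, 2 and 3. CCL2 lay below it at 2.90, 3.65 and 4.09 FPKM in the same libraries. In control replicates 1, 2 and 3, CXCL8 stood at 3.91, 3.06 and 3.56 FPKM, below CCL2 at 9.16, 6.79 and 6.43 FPKM. The ratio of CXCL8 to CCL2 counts within a library does not depend on the scaling between libraries. It was 2.80, 2.23 and 2.33 in 6-shogaol replicates 1, 2 and 3 and 0.481, 0.508 and 0.622 in control replicates 1, 2 and 3. On the log2 scale the ratio averaged 1.29 ± 0.175 with 6-shogaol and -0.91 ± 0.195 in controls (SD, n = 3 each), a difference of 2.19 (two-sided exact permutation test, p = 0.1, the smallest possible). CXCL8 lay higher and CCL2 lower without overlap in these same libraries, so their ratio had to separate the groups. That p was therefore fixed beforehand and gives no further support. Without any 1 library the difference ran from 2.09 to 2.30.

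**Figure D3:**
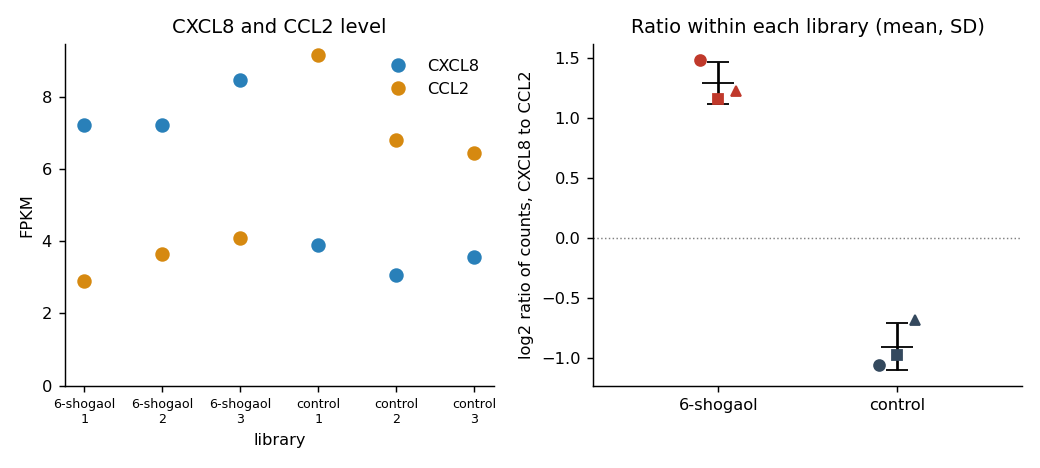
Left, FPKM of CXCL8 (blue) and CCL2 (orange) in each library. Right, log2 ratio of their counts within each library, with group mean and SD. In FPKM, which depends on the gene lengths used, CXCL8 lies above CCL2 in all 3 treated libraries and below it in all 3 controls.

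CCL20 (ENSG00000115009, chromosome 2, 227805739 to 227817556, plus strand) had 0 counts in all 3 treated libraries, and 9 counts in control replicate 3 with 0 in control replicates 1 and 2. Like CXCL1, it was too low to be tested, and its reads came from that 1 library. Its promoter is shown because it carries an NF-kB match, on the opposite strand, although the gene was almost silent, at chr2:227813753-227813781 (plus strand of the genome).
CCL20: tgatcaatggGGAAAACCCcatgtggcaa

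IL11, a gp130 cytokine of bone and fibrosis biology (ENSG00000095752, chromosome 19, 55364382 to 55370463, minus strand), rose with 6-shogaol. It stood at 10.8, 12.6 and 13.5 CPM in 6-shogaol replicates 1, 2 and 3, against 5.34, 6.51 and 7.10 CPM in control replicates 1, 2 and 3. The groups lay clearly apart. The means were 12.3 ± 1.40 CPM with 6-shogaol and 6.31 ± 0.897 CPM in controls (SD, n = 3 each), a log2 fold change of 0.96 (SE 0.16, 95% interval 0.60 to 1.33, edgeR adjusted p = 0.0274). Of the 6 fits that left out 1 library, the IL11 call held only in that without 6-shogaol replicate 1 (adjusted p = 0.0279). In the fits without 6-shogaol replicate 2 or 3 or control replicate 1, 2 or 3 the adjusted p ran up to 0.110, with log2 fold changes from 0.85 to 1.05.

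LIF, the gp130 cytokine known for keeping stem cells undifferentiated (ENSG00000128342, chromosome 22, 30240453 to 30246759, minus strand), stood at 53.9, 47.7 and 53.6 CPM in 6-shogaol replicates 1, 2 and 3. In control replicates 1, 2 and 3 it stood at 40.2, 41.8 and 42.7 CPM. The groups did not overlap, but LIF did not pass in edgeR (log2 fold change 0.32, 95% interval 0.13 to 0.50, adjusted p = 0.0818), whereas DESeq2 called it higher (adjusted p = 0.0217). In GENCODE 29, 4.41% of the LIF exon length is shared with AC004264 and 2.22% of that of IL6 with STEAP1B, and the strand setting of the counting is not given in the sources used here.

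IL6, the inflammatory cytokine that names the family (ENSG00000136244, chromosome 7, 22725884 to 22732002, plus strand), was low, with 65 to 77 counts per treated library and 52 to 100 per control library. It stood at 1.19, 1.30 and 1.77 CPM in 6-shogaol replicates 1, 2 and 3 and at 1.06, 0.889 and 1.67 CPM in control replicates 1, 2 and 3. Replicate 3 was the highest of each group, and the groups overlapped (log2 fold change 0.23, 95% interval -0.55 to 1.0, edgeR adjusted p = 0.761). Changes within that interval remain possible at this depth and spread. The promoters of IL6 and IL11 differ in their matches, an NF-kB match in IL6 at chr7:22727118-22727146 (plus strand) and an AP-1 match in IL11 at chr19:55370543-55370569 (minus strand).
IL6: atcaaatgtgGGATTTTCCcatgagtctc
IL11: gcagggagggTGAGTCAggatgtgtca
Within these windows IL11 and CXCL8, which edgeR called higher, were the 2 of 7 with an AP-1 match. CXCL3, also among the 7, lay higher without overlap, was not called (edgeR adjusted p = 0.114) and had no AP-1 match. This is given as a description and was not tested. CCL2, which fell, and LIF, which DESeq2 called higher, were not among the 7.

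CSF1, the growth factor of macrophages and microglia (ENSG00000184371, chromosome 1, 109910242 to 109930992, plus strand), was the most abundant of the 10. It stood at 142, 134 and 122 CPM in 6-shogaol replicates 1, 2 and 3 and at 141, 171 and 172 CPM in control replicates 1, 2 and 3. Only 6-shogaol replicate 1 reached into the control range, and CSF1 missed the threshold (log2 fold change -0.28, 95% interval -0.52 to -0.04, edgeR adjusted p = 0.180). CSF1 made up most of the total, and the summed level of the 10 transcripts overlapped between the groups, at 227 to 238 CPM with 6-shogaol and 223 to 252 CPM in controls.

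**Figure D4:**
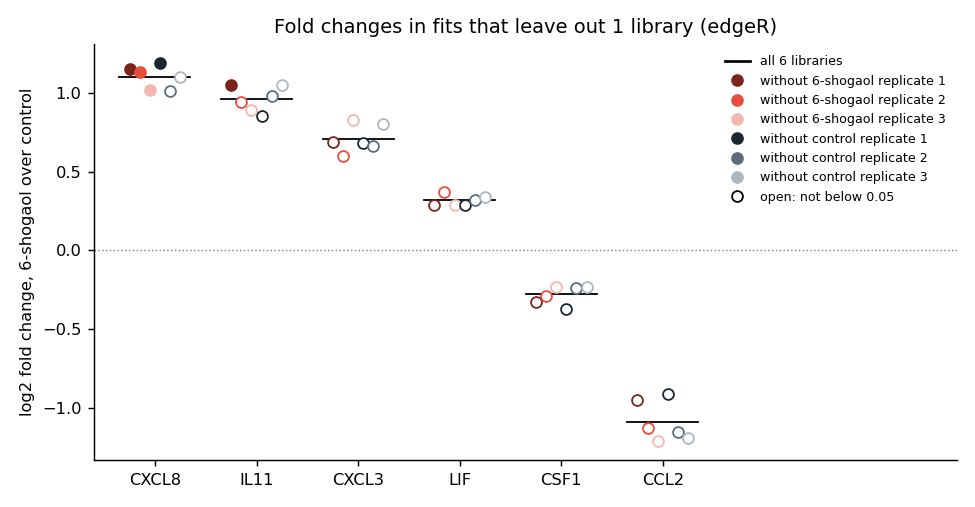
Log2 fold change, 6-shogaol over control, of 6 transcripts in edgeR fits that leave out 1 library each; filled points have an adjusted p under 0.05 and black lines are the fits with all 6 libraries. The directions hold in all the fits shown, while CCL2 is called in none of them, IL11 in 1 and CXCL8 in 4.

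In FPKM the order from the top with 6-shogaol was CSF1, LIF, CXCL8, IL11, CCL2, CXCL3, CXCL2 and IL6. The means were 21.6, 11.4, 7.64, 3.91, 3.55, 1.27, 0.965 and 0.551 FPKM. Neighbours whose ranges overlapped in this order were IL11 with CCL2 and CXCL3 with CXCL2. In controls the order was CSF1, LIF, CCL2, CXCL8, IL11, CXCL2, CXCL3 and IL6, with means of 25.9, 9.02, 7.46, 3.51, 1.97, 0.975, 0.759 and 0.473 FPKM. There only LIF and CCL2 overlapped among these neighbours. CXCL1 and CCL20 came last in both groups. In FPKM, CCL2 thus lay beside IL11 with 6-shogaol and beside LIF in controls, and CXCL3 lay below CXCL2 in controls only. The places of CXCL3 and CCL2 depend on the lengths used. In control replicates 1, 2 and 3, CXCL3 had 100, 111 and 137 counts, above CXCL2 with 79, 109 and 96. The lengths behind the FPKM values were not checked, and for CCL2 and CXCL3 the annotated exons cover the whole gene.

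The signalling receptors of CXCL8, CCL2 and CCL20 had no counts, whereas gp130 and the LIF receptor were expressed. CXCR1 and CXCR2, which bind CXCL8, CCR2, which binds CCL2, and CCR6, which binds CCL20, had 0 counts in all 6 libraries, which allows up to 0.0689 CPM with 6-shogaol and 0.0575 CPM in controls. ACKR2, an atypical receptor that binds and clears CCL2, had 10, 18 and 15 counts in 6-shogaol replicates 1, 2 and 3 and 8, 4 and 15 counts in control replicates 1, 2 and 3 (edgeR adjusted p = 0.536). The shared subunit gene IL6ST stood at 15.8, 18.5 and 17.5 FPKM in 6-shogaol replicates 1, 2 and 3 and at 9.25, 14.3 and 14.8 FPKM in control replicates 1, 2 and 3. Its groups did not overlap, yet the test was not passed (log2 fold change 0.42, edgeR adjusted p = 0.244). LIFR averaged 2.15 ± 0.160 FPKM with 6-shogaol and 1.78 ± 0.060 FPKM in controls (SD, n = 3 each, log2 fold change 0.25, edgeR adjusted p = 0.189). The IL-6 receptor gene IL6R scattered from 0.313 to 1.10 FPKM with 6-shogaol and from 0.200 to 0.696 FPKM in controls. IL11RA, which binds the IL-11 whose transcript rose, had at most 1 count in a treated library and at most 7 in a control library. CSF1R averaged 0.383 ± 0.0507 FPKM with 6-shogaol and 0.335 ± 0.0698 FPKM in controls (SD, n = 3 each). Of 7 tested receptor genes of 15, edgeR called 0, while 2 that lay higher and 1 that lay lower had an unadjusted p under 0.05. DESeq2 called 0 of the same 7, and limma 0 of the 3 it could test. For comparison here and in the lists below, 2014 of all 19279 tested genes lay higher at unadjusted p under 0.05 in edgeR, and 1918 lower. DESeq2 called 932 of the 19279 higher and 934 lower, and limma on log2(FPKM + 1) 399 of 12591 higher and 292 lower.

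**Figure D5:**
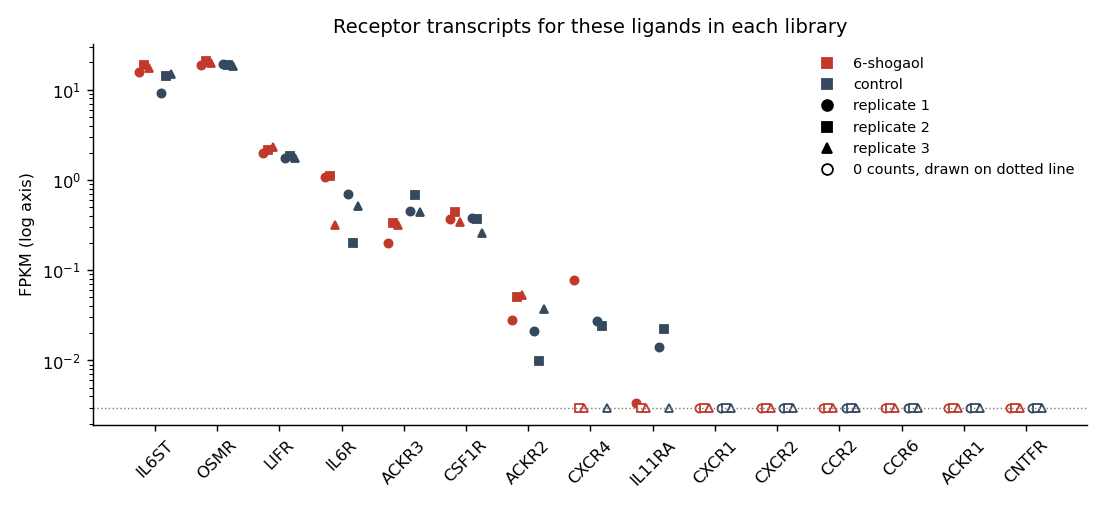
FPKM (log axis) of 15 receptor transcripts in each library, with 6-shogaol in red and control in dark blue; open symbols on the dotted line had 0 counts. IL6ST, OSMR and LIFR are expressed in all libraries, and CXCR1, CXCR2, CCR2 and CCR6 had no counts in any.

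Downstream of gp130, STAT3, the transcription factor of the pathway, was the 1 gene called lower of 12 tested genes of JAK and STAT3 signalling, and 0 were called higher. It stood at 236, 203 and 213 CPM in 6-shogaol replicates 1, 2 and 3 and at 281, 288 and 283 CPM in control replicates 1, 2 and 3 (log2 fold change -0.39, SE 0.07, edgeR adjusted p = 0.0383). Of the 6 fits without 1 library, the STAT3 call held only in that without 6-shogaol replicate 1, and the adjusted p ran up to 0.149 in the others. The feedback inhibitor SOCS3, chosen after its values were seen, averaged 18.1 ± 1.17 CPM with 6-shogaol and 15.9 ± 0.912 CPM in controls (SD, n = 3 each) and did not pass (edgeR adjusted p = 0.351). Of the 12 genes, 3 that lay higher and 2 that lay lower, STAT3 and SOCS1, had an unadjusted p under 0.05 in edgeR. Without overlap between the groups, 6 lay higher and 1 lower. The list had a median log2 fold change of 0.04, and DESeq2 called MYC higher as well as STAT3 lower. With limma on log2(FPKM + 1) 0 of the 10 genes it could test were called, so the STAT3 call was lost there.

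Among 13 tested genes of the signals that induce these factors, edgeR called 0. The list held NF-kB, C/EBP and AP-1 family members and IL-1, and also NFKBIA and TNFAIP3, feedback inhibitors of NF-kB. The unadjusted p was under 0.05 for 3 that lay higher, ATF3, CEBPB and the inhibitor TNFAIP3, and for 0 that lay lower. DESeq2 called ATF3 higher and limma called 0 of the 8 it could test. ATF3, a stress-induced partner of AP-1 proteins named for that call, stood at 22.6, 34.8 and 34.9 CPM in 6-shogaol replicates 1, 2 and 3 and at 18.1, 15.5 and 17.7 CPM in control replicates 1, 2 and 3 (edgeR adjusted p = 0.0545). TNF, which was too low to be tested, stayed at or below 0.253 CPM in every library, and IL1B at or below 0.528 CPM. Among 11 factors that control decay of AU-rich cytokine mRNAs, edgeR called 0, while 3 that lay higher and 0 that lay lower had an unadjusted p under 0.05. DESeq2 called ZFP36, which speeds that decay, higher, and limma called 0 of 11. As DESeq2 called 932 of all 19279 tested genes higher and 934 lower, a single call in either list is not read as a result about the list. ZFP36, also named for that call, averaged 18.7 ± 1.97 CPM with 6-shogaol and 13.9 ± 0.806 CPM in controls (SD, n = 3 each, edgeR adjusted p = 0.0964).

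Other ligands of these families were mostly silent. Of 41 further chemokines, gp130 cytokines and colony-stimulating factors, 20 had 0 counts in all 6 libraries and 9 could be tested. EdgeR called 0 of the 9, while 1 that lay higher and 0 that lay lower had an unadjusted p under 0.05. DESeq2 called 1 higher and limma 0 of the 4 it could test. That 1 was CCL26, an eosinophil chemokine, at 1.93, 1.31 and 2.32 CPM in 6-shogaol replicates 1, 2 and 3 and at 0.696, 0.872 and 0.333 CPM in control replicates 1, 2 and 3 (log2 fold change 1.55, edgeR adjusted p = 0.0985). The gp130 cytokine gene CLCF1, chosen after its values were seen, averaged 16.0 ± 1.43 CPM with 6-shogaol and 16.7 ± 2.36 CPM in controls (SD, n = 3 each, edgeR adjusted p = 0.853).

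Markers of other cells that make these factors were read beside them. Of 10 myeloid markers, the summed level was 19.6 to 31.4 CPM with 6-shogaol and 15.9 to 17.7 CPM in controls, without overlap, and most of it came from CD68, which many cell types express in lysosomes. AIF1 and TYROBP had 0 counts in all libraries, and PTPRC reached at most 0.265 CPM. CD14 stood at 0.987 to 1.36 CPM with 6-shogaol and 0.735 to 1.10 CPM in controls. CSF1R stood at 2.11 to 2.71 CPM with 6-shogaol and 1.55 to 2.38 CPM in controls. ITGAM had 9, 8 and 0 counts in 6-shogaol replicates 1, 2 and 3 and 0 counts in all controls. EdgeR called 0 of the 3 tested myeloid markers, with 1 higher at unadjusted p under 0.05, CD68, which DESeq2 called higher and limma did not. The 6 lymphoid markers summed to at most 0.275 CPM with 6-shogaol and 0.0773 CPM in controls. The 5 endothelial markers summed to 2.46 to 3.20 CPM with 6-shogaol and 4.76 to 5.39 CPM in controls. Of the 3 tested, KDR overlapped between the groups (log2 fold change 0.01, edgeR adjusted p = 0.986). VWF lay lower without overlap and was not called (edgeR adjusted p = 0.4275). The endothelial cadherin CDH5 was lower with 6-shogaol (log2 fold change -1.76, edgeR adjusted p = 0.0192), a call that, of the fits without 1 library, held only without 6-shogaol replicate 1 or 3. The defining endothelial gene PECAM1 had 0 counts in all 3 treated libraries and in control replicates 1 and 3, and 8 in control replicate 2. Of 9 astrocytic and neural stem markers, 2 were called lower, GFAP in all 6 fits without 1 library and NES (log2 fold change -0.42, adjusted p = 0.0484) only in that without 6-shogaol replicate 1. DESeq2 called 4 lower, GFAP, NES, SOX2 and SOX9, and limma called GFAP alone of 7. CD44, also of that list, lay higher without overlap and was not called (log2 fold change 0.25, edgeR adjusted p = 0.120). The part of these shifts in the changes of CXCL8, IL11 and CCL2 was not tested.

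The genes whose level followed CXCL8 most closely over the 6 libraries were TNKS, ESYT2, RGMB, DNA2 and RRM2, in a search of the 11721 genes that averaged 5 CPM or more. Pearson's r of log2(CPM + 0.5) with CXCL8 ran from 0.991 for RRM2 to 0.997 for TNKS, over 6 points that form 2 groups and share their libraries. Their log2 fold changes were 0.25, 0.09, 0.15, 0.41 and 0.76, all smaller than that of CXCL8, and edgeR called DNA2 and RRM2 higher (adjusted p = 0.0466 and 0.00635). Over all tested genes 1.67% were called higher. Genes chosen for following CXCL8 lie apart by group through that choice, so these calls give no further support.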

How the data were processed

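The authors deposited raw counts per gene and FPKM values, per the file headers, for 60612 human Ensembl genes; a second deposited count table held the same values. The aligner, the counter and the strand setting are not given in the sources used here. The submitters' processing notes name the mouse builds GRCm38 and mm10, whereas all identifiers are human, and 58394 are in GENCODE release 29 (GRCh38), 72.7% with the same start and end. Gene coordinates are as deposited. An FPKM of 0.0001 stands in for a count of 0.

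The count test was edgeR 4.0.16 in R 4.3.3. After filterByExpr, 19279 genes were left, TMM scaled the libraries, and glmQLFTest compared the groups, with Benjamini-Hochberg adjustment at 0.05. Standard errors were obtained from the log2 fold change and the F statistic (their ratio, with F under a square root). Depth was 43516840 to 60018999 counts, and no libraries of a group were alike within sampling noise (chi-square over its degrees of freedom 31.3 to 63.7). As alternatives, scaling by RLE or upper quartile, DESeq2 1.42.0, no filter or 1 CPM in 3 libraries, a replicate block, leaving out each library, and limma 3.58.1 on log2(FPKM + 1) or log2(FPKM + 0.1) were run. The scripts were tested on simulated data. For well-counted genes in simulated counts, edgeR recovered 14% of 1.5-fold, 66% of 2-fold, 86% of 3-fold and 96% of 4-fold changes. It made 9 false calls among 18628 genes, so smaller changes could often be missed.

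The 10 genes and the gene lists were chosen with earlier results of these data known. All 10 were described. Of other lists, the rule named called genes, the receptors of the 10 and the 5 genes most like CXCL8. Every other gene given by name, such as SOCS3, CLCF1, VIM, CD44, TNF, IL1B, PTPRC, PECAM1, CCL27 and CCL5, was chosen after its values were seen.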

Additional observations from a re-analysis of the deposited data

How the results depend on the processing

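Over all genes, edgeR called 651, against 1866 by DESeq2, 378 with no filter, 3 with a replicate block, and 98 to 1012 when 1 library was left out. Of the 8 tested genes, 2 were called higher and 1 lower. With the replicate block 0 were called higher and 0 lower (adjusted p = 0.0871 for CXCL8, 0.0900 for IL11 and 0.145 for CCL2), at log2 fold changes of 1.10, 0.97 and -1.09. The labels do not say whether same-numbered libraries were paired. Deviations of same-numbered libraries correlated at -0.036 to 0.059, and those of differently numbered ones at -0.063 to 0.089. Such small correlations over so few libraries cannot decide whether there was a pairing. Without 1 library, 0 to 2 were called higher and 0 to 0 lower. With limma on log2(FPKM + 1) and no filter 0 were called lower (CCL2, adjusted p = 0.0746). The causes were not tested. RLE or upper-quartile scaling and the 1 CPM filter changed no call of the 8 genes. CXCL2 turned sign without 6-shogaol replicate 3 (0.06) and without control replicate 2 (0.04), within a range of -0.18 to 0.06 over the fits without 1 library. With the replicate block the summed CXCL1, CXCL2 and CXCL3 difference was 0.40 and the log2 ratio difference of CXCL8 to CCL2 was 2.19 (exact permutation p = 0.25 each, the smallest that 3 pairs can give). For the ratio this p was fixed beforehand, as CXCL8 lay higher and CCL2 lower without overlap. Depth limits CXCL1 and CCL20, which had no counts in 5 of 6 libraries.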

Other observations

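Of 51 ligands in all, 34 were too low to be tested, and 14 of these had at least 1 count in a library. Counts in a single library were found for 1 of these only in 6-shogaol replicate 1 (CXCL17), for 2 only in 6-shogaol replicate 2 (CCL28 and CTF1) and for 0 only in 6-shogaol replicate 3. They were found for 0 only in control replicate 1, for 0 only in control replicate 2 and for 4 only in control replicate 3 (CXCL1, CCL20, CXCL10 and CCL24). Among all genes, 515, 529 and 398 had 4 or more counts in 1 library only for 6-shogaol replicates 1, 2 and 3, and 481, 499 and 521 for control replicates 1, 2 and 3. CCL27, a skin chemokine, had 16, 19 and 2 counts in 6-shogaol replicates 1, 2 and 3 and 0 counts in all 3 control libraries. CCL5, a T cell chemokine, stood at 0.0708, 0.159 and 0.413 CPM in 6-shogaol replicates 1, 2 and 3 and at 0.580, 0.598 and 0.533 CPM in control replicates 1, 2 and 3 (log2 fold change -1.43, edgeR adjusted p = 0.281).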
